A study of Mus musculus with 12 samples.

Results

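The endoplasmic reticulum (ER) stress and integrated stress response genes described here are 34 named genes, chosen by symbol out of the 23163 gene rows of the count table. They fall into 5 roles: 9 HSP70/HSP90 chaperones and their cofactors, 6 lectin chaperones and disulfide isomerases, 7 genes of ER-associated degradation, 5 sensors and their transcription factors, and 7 genes of the ATF4 arm. RNA of fat from male C57Bl/6 wild-type mice aged 8 to 12 weeks was sequenced in 4 groups of 3 libraries. The groups are brown adipose tissue (BAT) of mice held at 4 °C for 72 hours (BAT cold), BAT of mice held at 30 °C for 72 hours (BAT thermoneutral, TN), subcutaneous white adipose tissue (sWAT) at 4 °C (sWAT cold) and sWAT at 30 °C (sWAT TN). At 30 °C a mouse needs no extra heat, so the comparison asks what cold does to each depot. The labels give 10 mice at each temperature but do not tie a library to an animal, so libraries may be single animals or pools, and p-values measure the spread between these libraries only. The 34 genes were all in the table and all passed the filter on low counts in every comparison. Derl3 passed it in BAT only through the TN libraries, so its call there had to be a lower level in cold.

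Proteins that enter the ER are folded by chaperones, and misfolded ones are returned to the cytosol and destroyed by ER-associated degradation. When unfolded protein builds up, the sensors Ern1 (IRE1), Atf6 and Eif2ak3 (PERK) raise the production of chaperones and degradation genes, the unfolded protein response. Eif2ak3 also phosphorylates the translation factor eIF2alpha, a step it shares with kinases for amino acid shortage, viral RNA and heme shortage. That step, the integrated stress response, slows translation and raises Atf4, which drives genes of amino acid synthesis and of recovery or cell death. Brown fat in cold makes heat by uncoupled respiration and remodels its lipids and proteins, and protein quality control in the ER and by the proteasome is known to matter there. A table of counts per gene does not show splicing of Xbp1, cleavage of Atf6 or phosphorylation of eIF2alpha, the steps by which the sensors act.

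The members' promoters were searched for the sequences that Atf6, Xbp1 and Atf4 are known to bind. The RefSeq table of promoters (GRCm38.p6) held a window from 250 bases before to 50 after the start for 30 of the 34 genes. Hyou1, Manf, Derl1 and Atf6 had none. The ER stress element, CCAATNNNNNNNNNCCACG, is a CCAAT box and a CCACG box at a fixed distance. It was present on either strand in 9 of the 30 windows, against 37 of all 27025 genes with a window (0.137%). The 34 genes were listed for their known part in these responses, so these shares, and those of the elements below, are a description and not a test. The 9 genes are shown because they carry the same element, and those that passed the test in cold did so in both directions. Capitals mark the element, the flanks are 20 bases, and each line reads along the strand of its gene, so a match on the other strand begins with CGTGG and ends with ATTGG.
Hspa5, chr2:34772005-34772063, plus strand: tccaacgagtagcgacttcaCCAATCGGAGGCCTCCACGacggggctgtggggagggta
Hsp90b1, chr10:86705618-86705676, minus strand: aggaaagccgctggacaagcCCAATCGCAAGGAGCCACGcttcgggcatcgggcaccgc
Hsp90b1, chr10:86705513-86705571, minus strand: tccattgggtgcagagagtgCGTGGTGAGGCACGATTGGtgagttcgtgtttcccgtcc
Dnajc3, chr14:118937807-118937865, plus strand: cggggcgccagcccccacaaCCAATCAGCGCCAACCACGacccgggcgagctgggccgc
Creld2, chr15:88819500-88819558, plus strand: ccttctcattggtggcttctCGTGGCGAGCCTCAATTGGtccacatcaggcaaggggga
Calr, chr8:84847055-84847113, minus strand: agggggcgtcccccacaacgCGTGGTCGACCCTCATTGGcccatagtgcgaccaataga
Canx, chr11:50325780-50325838, minus strand: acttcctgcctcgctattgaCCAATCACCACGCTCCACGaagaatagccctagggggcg
Pdia6, chr12:17266471-17266529, plus strand: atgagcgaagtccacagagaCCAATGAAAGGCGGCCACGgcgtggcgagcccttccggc
Syvn1, chr19:6046512-6046570, plus strand: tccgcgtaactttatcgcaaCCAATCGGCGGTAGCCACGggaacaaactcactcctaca
Derl3, chr10:75893222-75893280, plus strand: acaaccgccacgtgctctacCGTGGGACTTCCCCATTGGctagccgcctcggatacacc

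A second form, ER stress element II, in which ATTGG and CCACG are 1 base apart, was found in Herpud1 and Dnajb11, against 0.0444% of all genes with a window. The core of the Xbp1 and Atf6 element, TGACGTGG, was in 0 of the 30 windows and in 0.714% of all genes. The composite bound by C/EBP and ATF factors, TGATGNAA, was in Herpud1, Trib3, Asns and Chac1, against 4.51% of all genes. No match of one element overlapped another in the windows printed. Herpud1 holds both kinds, and Asns and Chac1 are classical Atf4 targets, so their windows are shown with the element in capitals. A match of the composite on the other strand begins with TT and ends with CATCA.
Herpud1, chr8:94386357-94386407, plus strand, ER stress element II: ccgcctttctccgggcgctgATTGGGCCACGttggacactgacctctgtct
Herpud1, chr8:94386297-94386344, plus strand, composite: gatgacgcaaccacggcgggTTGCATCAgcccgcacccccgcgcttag
Asns, chr6:7693205-7693252, minus strand, composite: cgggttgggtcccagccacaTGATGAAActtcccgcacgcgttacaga
Chac1, chr2:119351029-119351076, plus strand, composite: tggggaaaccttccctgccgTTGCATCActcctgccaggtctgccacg

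The libraries held 27117934 to 56243016 counts. The 3 sWAT TN libraries stood apart from all others: genes encoded in mitochondrial DNA took 0.181 to 0.307% of their counts, against 17.6 to 53.8% in the other 9, and log2 CPM gained 0.804 to 1.372 for each 10 points of GC content in them, against a slope between -0.743 and 0.235 elsewhere. Every comparison with sWAT TN rests on these libraries, and whatever sets them apart cannot be told apart from temperature. Within BAT the libraries numbered 3 also differed from libraries 1 and 2. Mitochondrial genes took 53.8% of counts in BAT cold 3, against 24.4 and 20.0%, and the GC slope was -0.743, against 0.155 and 0.235. In BAT TN 3 the share was 17.6%, against 34.8 and 37.7%, and the slope -0.419, against -0.087 and -0.186. The depots carried their markers: the summed level of brown and beige adipocyte markers was 26300 to 29800 CPM in BAT cold and 6380 to 7060 CPM in BAT TN, and 4660 to 17800 CPM in sWAT cold and 258 to 1180 CPM in sWAT TN. Markers of general adipocytes summed to 14500 to 23200 CPM in sWAT cold and 6140 to 9990 CPM in sWAT TN. Summed markers of B and T cells were at 202 to 591 CPM in sWAT cold and 802 to 1090 CPM in sWAT TN, those of macrophages at 285 to 422 CPM in sWAT cold, against 971 to 1550 CPM in sWAT TN, and those of skeletal muscle at 8590 to 22400 CPM in sWAT cold, against 112 to 4890 CPM in sWAT TN. In sWAT cold, library 1 differed from libraries 2 and 3. Its brown and beige adipocyte markers summed to 4660 CPM, against 17800 and 15700 CPM, and its B and T cell markers to 591 CPM, against 223 and 202 CPM. In bulk tissue, fewer cells of a type and less RNA per cell cannot be told apart.

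Levels below are CPM, the usual count relative to a library's total, scaled by TMM factors over the 12 libraries, with libraries 1, 2 and 3 of a group in that order. A response is a log2 fold change ± SE with 3 libraries per group. Genes that rose, fell or were called passed 0.05 in edgeR's quasi-likelihood test, with p adjusted over all genes by Benjamini-Hochberg. Lack of overlap between groups describes single genes, and no share of all genes without overlap is given. Per kilobase of the longest transcript, Calr had the highest mean level of the 34 genes in BAT cold (223 CPM per kb), in BAT TN (97.4 CPM per kb) and in sWAT cold (146 CPM per kb). In sWAT TN P4hb was highest, at 81.4 CPM per kb. Derl3 was the lowest in BAT cold, at 0.0689 CPM per kb, in BAT TN, at 0.628 CPM per kb, and in sWAT cold, at 0.336 CPM per kb, while Ern1 was the lowest in sWAT TN, at 1.79 CPM per kb.

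In BAT, cold raised 3 of the 34 genes and lowered 1. Calr, Derl1 and Atf6 were higher and Derl3, which entered the test through its TN libraries, was lower. Over all 14612 genes tested in BAT, 6.82% were higher and 5.34% lower, so the members' shares, 8.82% and 2.94%, were near those of all genes. Their median response was 0.13, against -0.04 for all genes. Without both BAT libraries numbered 3, which differed from libraries 1 and 2 as given above, 15 members were called, 9 higher and 6 lower. At that setting 6509 of all 14566 genes tested were called, 3265 of them higher, so calls rose for genes in general. With any 1 of BAT cold 2, BAT TN 1 and BAT TN 2 left out, the 4 calls were all lost (adjusted p = 0.054 to 0.107), and without BAT cold 1 those of Calr (adjusted p = 0.0795) and Derl1 (adjusted p = 0.0541) were. Calls among all genes were 451 to 588 in those fits, against 1776 with no library left out, so calls fell for genes in general.

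**Figure D1:**
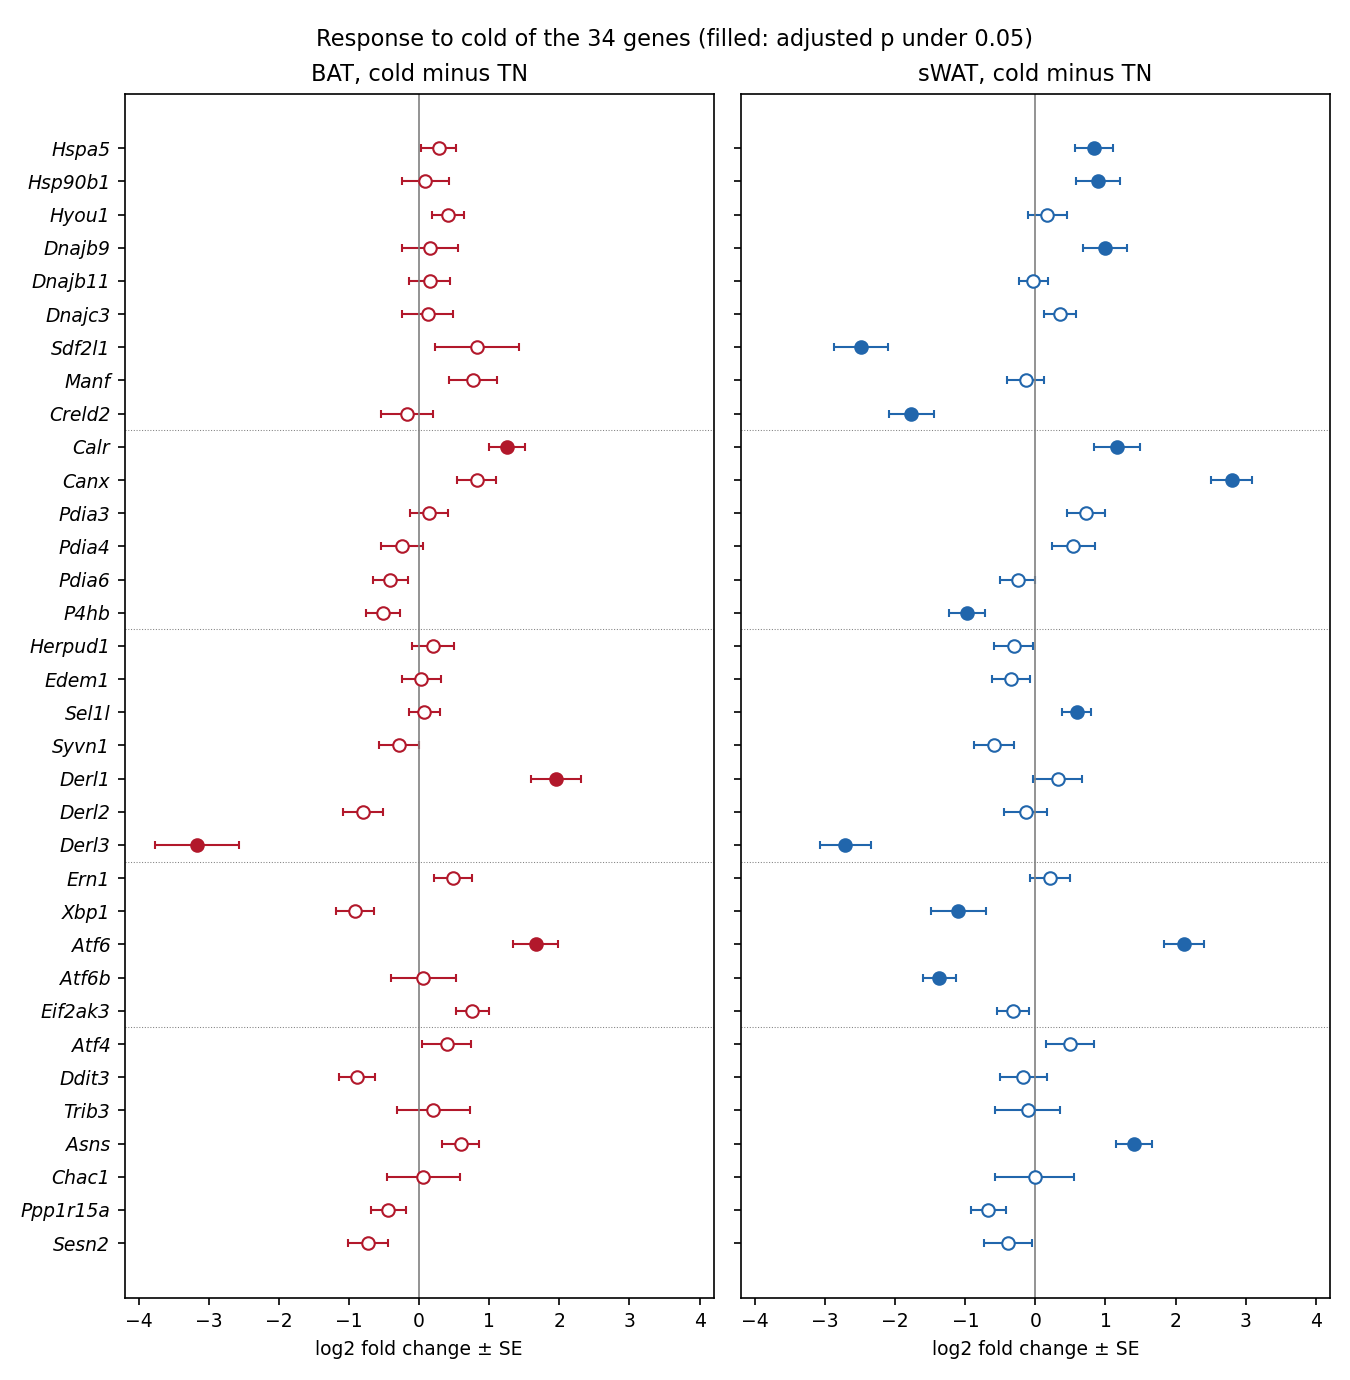
Log2 fold change ± SE (x axis) of each of the 34 genes (y axis, ordered by role, dotted lines between roles) in BAT cold against TN (left) and sWAT cold against TN (right), 3 libraries per group. Filled points passed an adjusted p of 0.05: 4 genes in BAT and 14 in sWAT, with Calr and Atf6 to the right and Derl3 to the left in both.

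Calr, the calcium-binding lectin chaperone calreticulin, had 466, 534 and 459 CPM in BAT cold, against 193, 201 and 244 CPM in BAT TN. The groups did not overlap, and every cold library had at least 459 CPM. Its response was 1.25 ± 0.26 (adjusted p = 0.0192). Canx, calnexin, the membrane-bound partner of Calr in glycoprotein folding, had 230, 229 and 354 CPM in BAT cold, against 146, 162 and 171 CPM in BAT TN. These groups did not overlap either, but library 3 was well above the other 2 cold ones and the response of 0.82 ± 0.28 did not pass (adjusted p = 0.0955). It passed with correction for GC content (0.98, adjusted p = 0.0125), in DESeq2 (0.83, adjusted p = 0.039) and without both libraries numbered 3 (0.63, adjusted p = 0.0219).

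The 4 disulfide isomerases, which form and rearrange the disulfide bonds of folding proteins, did not pass in BAT. Pdia3 averaged 113 ± 28.3 CPM in cold and 106 ± 12.4 CPM at TN (SD, n = 3 each), with a response of 0.14 ± 0.27. Pdia4 had a response of -0.24 ± 0.30 and Pdia6 of -0.41 ± 0.25, with every cold library of Pdia6 below every TN one. P4hb, which is also a subunit of collagen prolyl hydroxylase, had 73.4, 70.6 and 72.4 CPM in cold, against 129, 102 and 92.2 CPM at TN. All 3 cold libraries of P4hb lay below all TN ones, and the response was -0.52 ± 0.24 (adjusted p = 0.194), with -0.62 (adjusted p = 0.0203) without both libraries numbered 3.

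None of the 9 HSP70/HSP90 chaperones and cofactors was called in BAT by edgeR, DESeq2 or limma-voom, and 0 had an unadjusted p under 0.05. Hspa5 (BiP), the main HSP70 of the ER and the usual marker of ER stress, had 261, 253 and 249 CPM in BAT cold, against 244, 232 and 177 CPM in BAT TN. The cold libraries were all above the TN ones, by little except for TN library 3, and the response was 0.28 ± 0.25 (adjusted p = 0.49). Hsp90b1 (GRP94), the HSP90 of the ER, had 231, 220 and 360 CPM in cold, against 221, 216 and 356 CPM at TN. For this gene library 3 was high at both temperatures and the groups overlapped. The other 7 had responses from -0.17 for Creld2 to 0.83 for Sdf2l1. Among them, Manf, a secreted and ER-resident trophic factor, averaged 49.5 ± 13.4 CPM in cold and 30.1 ± 11.4 CPM at TN, with a response of 0.77 ± 0.34 (adjusted p = 0.178) that became 1.33 (adjusted p = 0.000197) without both libraries numbered 3. Without those libraries Dnajc3, a cofactor that also restrains eIF2alpha kinases, passed too (0.47, adjusted p = 0.045).

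Among the 7 genes of ER-associated degradation, Derl1 gave the largest rise of the 34 genes in BAT. Derlins are membrane proteins through which misfolded proteins leave the ER. Derl1 (chr15:57869502-57892448, minus strand, mm10) had 518, 423 and 226 CPM in BAT cold, against 107, 124 and 83.7 CPM in BAT TN. Every cold library was above every TN one, cold library 3 being the lowest of the cold ones, and the response was 1.95 ± 0.36 (adjusted p = 0.0135). Derl2 was on the other side of 0, with 15.5, 12.5 and 22.9 CPM in cold, against 30.7, 31.3 and 30.2 CPM at TN. The TN libraries of Derl2 were close to each other and all above the cold ones, and the response was -0.80 ± 0.28 (adjusted p = 0.101). It passed with correction for GC content (-0.67, adjusted p = 0.0415), without BAT cold 3 (-1.08, adjusted p = 0.0227) and without both libraries numbered 3 (-1.09, adjusted p = 0.00084).

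Derl3 was close to the limit of detection in BAT cold, with counts of 4, 2 and 1, against 30, 28 and 26 in BAT TN. Summed over the libraries and scaled for depth, the ratio of cold to TN was 0.103, with a 95% exact interval from 0.0403 to 0.222 that covers counting error only. The fitted response was -3.17 ± 0.60 (adjusted p = 0.0144), and -3.94 without BAT cold 1. Because the gene passed the filter on low counts only where it was high, these fitted values are a description and the counts carry the comparison. Derl3 is known as a gene of secretory cells, and the summed level of 12 plasma cell markers was 42.2 to 54.1 CPM in BAT cold and 57.6 to 116 CPM in BAT TN. Of these markers 10 were detected in each cold library and 11 to 12 in each TN library, those at 0 being 2 of Mzb1, Tnfrsf17 and Ighg2b in each cold library and Tnfrsf17 in TN library 3. Singly, Ighm was higher in every BAT cold library, at 19.0 to 22.3 CPM, against 9.13 to 14.0 CPM at TN. Jchain and Sdc1 were lower in every BAT cold library, and Igkc, Mzb1 and Tnfrsf17 overlapped between the groups. The part of plasma cells in the Derl3 result was not tested. Sel1l and Syvn1, the core of the ubiquitin ligase that Derlins work with, had responses of 0.07 ± 0.22 and -0.29 ± 0.29, Edem1 of 0.03 ± 0.28 and Herpud1 of 0.20 ± 0.30, and none of these 4 was called in BAT.

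Of the sensors, Atf6 (chr1:170704674-170867771, minus strand, mm10) had 77.3, 91.7 and 131 CPM in BAT cold, against 26.1, 30.5 and 42.2 CPM in BAT TN. The groups were far apart, and the response was 1.66 ± 0.32 (adjusted p = 0.0148). Its paralog Atf6b, a weaker activator, had 20.8, 17.7 and 8.94 CPM in cold, against 20.7, 19.7 and 7.12 CPM at TN. Library 3 was low at both temperatures, and the response was 0.06 ± 0.46. Ern1 had 15.9, 16.7 and 21.3 CPM in cold, against 11.1, 13.5 and 15.5 CPM at TN. Those groups did not overlap, with a response of 0.48 ± 0.27 (adjusted p = 0.271).

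Eif2ak3 had 21.5, 22.2 and 18.8 CPM in BAT cold, against 12.5, 14.2 and 11.6 CPM in BAT TN. All cold libraries were above all TN ones, and the response of 0.76 ± 0.24 missed the threshold (adjusted p = 0.0743). Xbp1, the factor whose RNA Ern1 splices, had 32.9, 26.7 and 42.8 CPM in cold, against 71.3, 57.7 and 71.2 CPM at TN. Here all cold libraries were below all TN ones, with a response of -0.91 ± 0.27 (adjusted p = 0.0602). Both passed in DESeq2 (0.78, adjusted p = 0.0249 for Eif2ak3 and -0.89, adjusted p = 0.0213 for Xbp1), with correction for GC content (0.76, adjusted p = 0.0269, and -0.93, adjusted p = 0.0494) and without BAT cold 3 (0.83, adjusted p = 0.0438, and -1.11, adjusted p = 0.025). They also passed in edgeR with a block for the library number (0.77, adjusted p = 0.0402, and -0.93, adjusted p = 0.0285). Of 17 alternatives, 6 called Eif2ak3 and 7 called Xbp1. The Eif2ak3 exons overlap those of an annotated gene on the opposite strand by 485 bases, and the strand setting of the counting is not given in the sources used here.

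**Figure D2:**
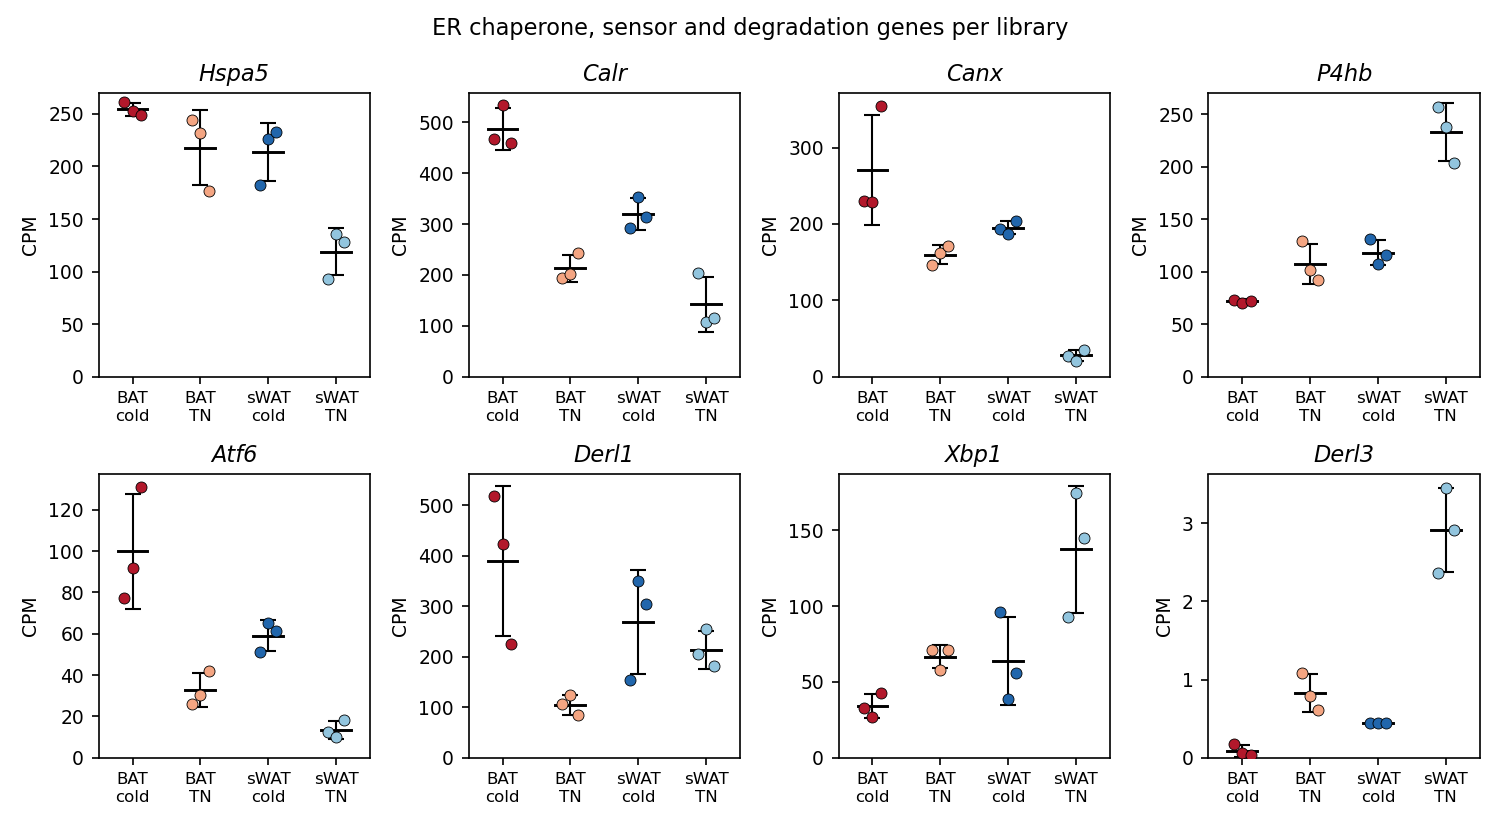
Level in CPM (y axis, from 0) of 8 genes in each library, with BAT cold, BAT TN, sWAT cold and sWAT TN from left to right. Points are libraries and bars are the mean ± SD of 3. Atf6, Calr, Canx and Hspa5 were above TN in every cold library of both depots, while Derl3 and P4hb were below it in every cold library. Derl1 was above TN in every cold library of BAT but not of sWAT.

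The 7 genes of the ATF4 arm gave 0 calls in BAT in edgeR and limma-voom and 1 in DESeq2, Ddit3, while 3 had an unadjusted p under 0.05, 1 higher and 2 lower. Atf4 had 232, 218 and 104 CPM in BAT cold, against 177, 145 and 118 CPM in BAT TN. Cold library 3 was the lowest of the 6, and the response was 0.39 ± 0.35 (adjusted p = 0.491). Without both libraries numbered 3 it was 0.54 (adjusted p = 0.0422). Ddit3 (CHOP), the death-promoting factor downstream of Atf4, had 14.2, 13.6 and 9.95 CPM in cold, against 24.1, 21.9 and 26.8 CPM at TN. The groups were clearly apart, cold being lower in 3 of 3 libraries, with a response of -0.89 ± 0.26 (adjusted p = 0.0566) that passed in DESeq2 (-0.88, adjusted p = 0.0212) and in 5 of the other 16 alternatives. The block for the library number was among these 5 (-0.90, adjusted p = 0.0441).

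The other 5 genes of the arm did not pass in BAT. Asns, asparagine synthetase, had 61.9, 65.5 and 87.2 CPM in cold, against 44.2, 49.2 and 55.1 CPM at TN, with a response of 0.59 ± 0.26 (adjusted p = 0.169) and no overlap. Sesn2, a sestrin that restrains growth signalling, averaged 19.1 ± 2.13 CPM in cold and 33.0 ± 8.52 CPM at TN, with -0.73 ± 0.28 (adjusted p = 0.122) and no overlap. Without BAT TN 3 its response was -0.94 (adjusted p = 0.0379). Ppp1r15a (GADD34), the phosphatase subunit that ends eIF2alpha phosphorylation, averaged 19.3 ± 3.54 CPM in cold and 27.1 ± 0.998 CPM at TN, with -0.44 ± 0.25 (adjusted p = 0.277) and no overlap. Trib3 and Chac1, both known targets of Atf4 and Ddit3, averaged 5.36 ± 2.84 and 2.53 ± 1.29 CPM in cold, against 4.87 ± 2.15 and 2.53 ± 1.18 CPM at TN.

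**Figure D3:**
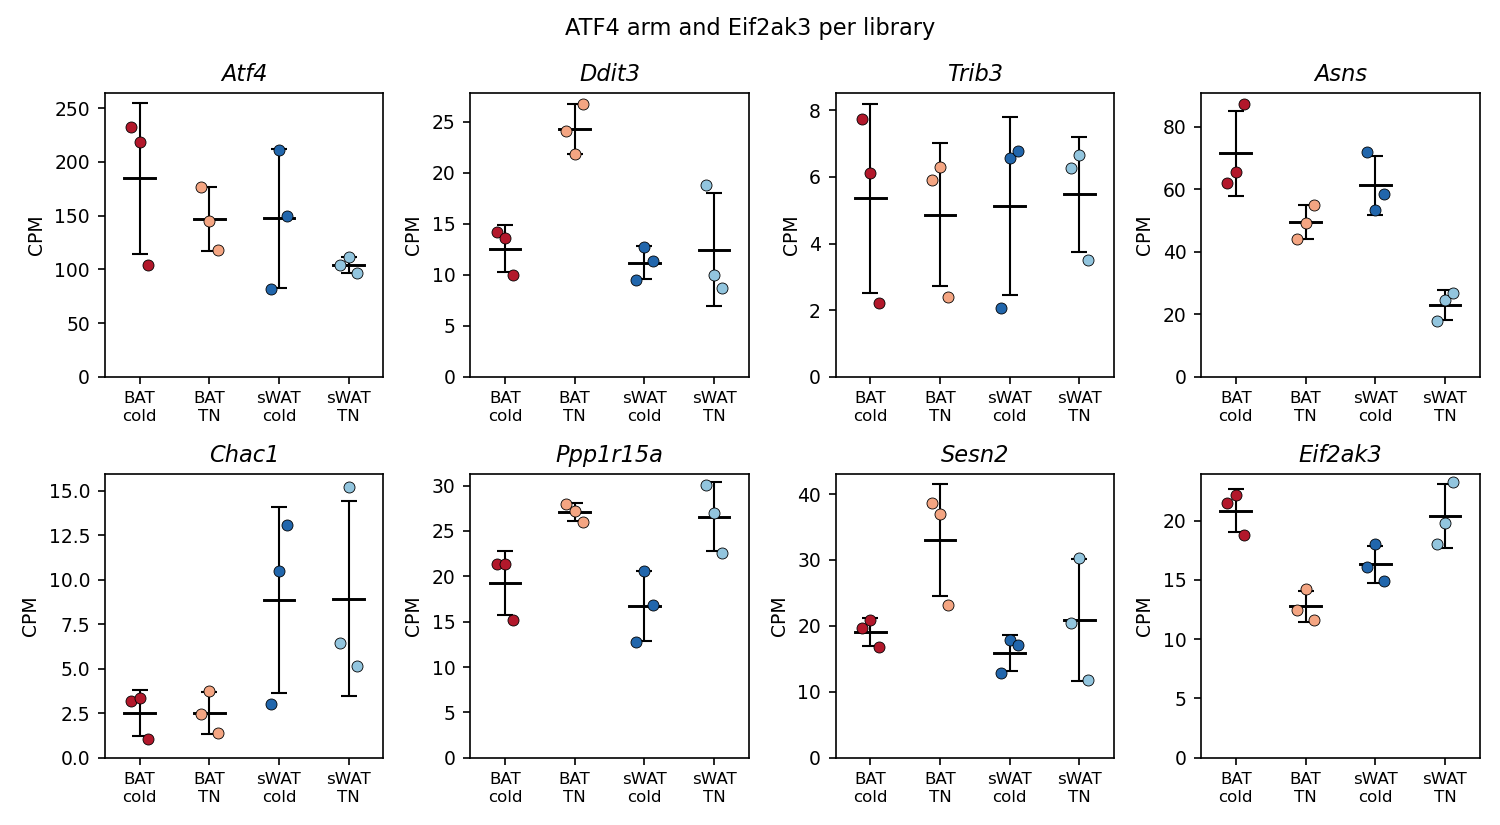
Level in CPM (y axis, from 0) of the 7 genes of the ATF4 arm and of Eif2ak3 in each library, with BAT cold, BAT TN, sWAT cold and sWAT TN from left to right; points are libraries and bars are the mean ± SD of 3. Ddit3 lay between 9.95 and 14.2 CPM in BAT cold and between 21.9 and 26.8 CPM in BAT TN. Asns was above TN in every cold library of both depots, and Ppp1r15a was below it in every cold library of both.

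In sWAT, cold raised 8 of the 34 genes and lowered 6. Hspa5, Hsp90b1, Dnajb9, Calr, Canx, Sel1l, Atf6 and Asns rose, and Sdf2l1, Creld2, P4hb, Derl3, Xbp1 and Atf6b fell. Among all 15731 genes tested, 25.1% were higher and 24.1% lower, beside 23.5% and 17.6% of the members, so the members changed about as often as genes in general. Their median response was -0.07, against 0.00 for all genes. With sWAT cold 3 left out 7 members were called, beside 5672 of all 16080 genes, and with sWAT TN 3 left out 8, beside 6989 of all 16073. With no library left out 7734 of all 15731 genes were called.

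The called members split by base composition. The 8 that rose had a GC content of 40.6 to 50% over the longest transcript and the 6 that fell one of 53.0 to 60.3%. Across the 34 genes the response in sWAT and GC content had a Pearson r of -0.67 and a Spearman rho of -0.69. Across all genes tested with a GC value r was -0.49. Genes are not independent replicates, and all share the same 6 libraries. With each library corrected for its own GC trend, r over the members was -0.12 and 11 members were called, 5 higher and 6 lower. At that setting 6873 of all 15731 genes were called, 3487 of them higher. In BAT the r over the members was -0.24. For members called in sWAT the value with GC correction is given beside the result. With the correction 7 of the 14 calls held and 7 were lost, 4 other members passed, and the sign of the response turned for 10 of the 34 genes.

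**Figure D4:**
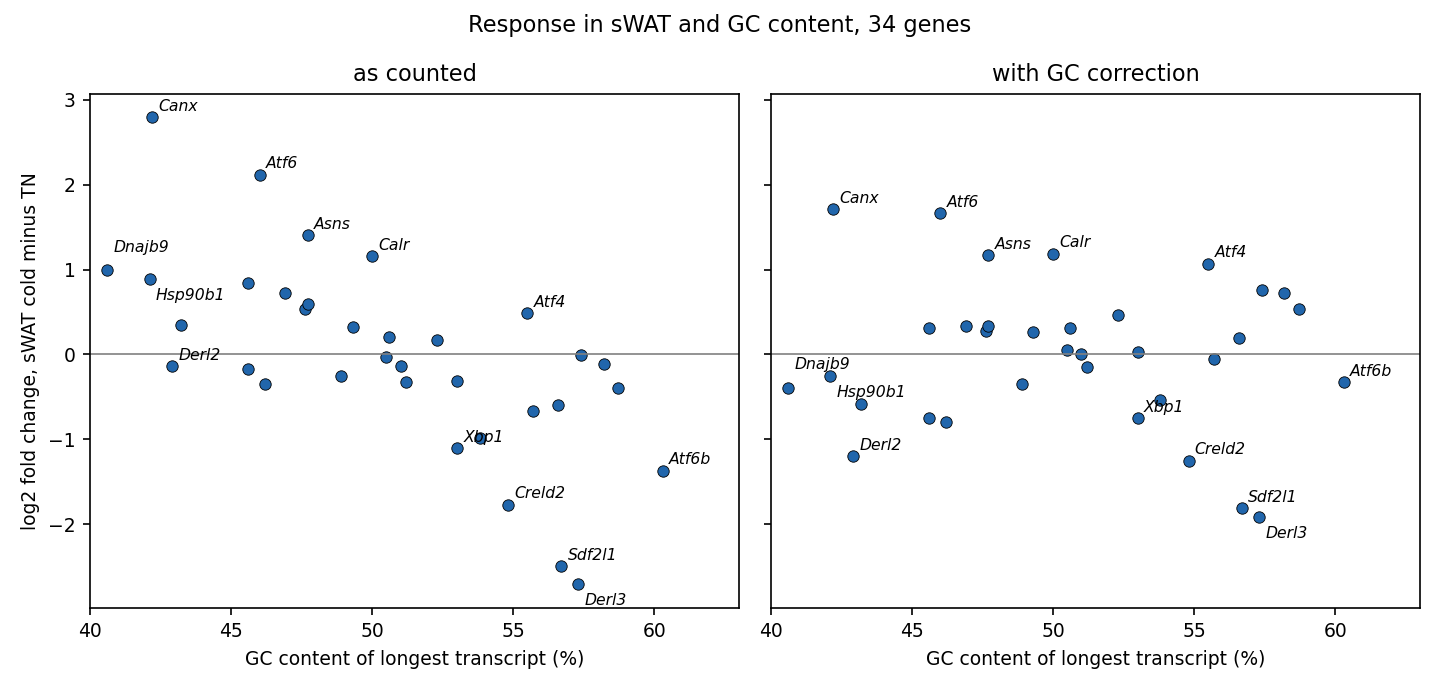
Response of the 34 genes in sWAT (log2 fold change, cold minus TN, y axis) against the GC content of the longest transcript in percent (x axis), as counted (left) and with GC correction (right); each point is a gene. The downward trend on the left, with r = -0.67, is r = -0.12 on the right, where Canx, Atf6, Asns and Calr stay above 1 and Sdf2l1, Creld2 and Derl3 stay below -1.

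Canx gave the largest rise of the 34 genes in sWAT. It had 194, 187 and 204 CPM in sWAT cold, against 27.4, 21 and 35.4 CPM in sWAT TN. The cold libraries were within a narrow range and far above all TN ones, and the response was 2.80 ± 0.29 (adjusted p = 0.000349), or 1.71 with GC correction (adjusted p = 0.00239). Calr had 292, 354 and 313 CPM in cold, against 204, 107 and 115 CPM at TN. Its groups did not overlap, the response was 1.16 ± 0.33 (adjusted p = 0.0188), and with GC correction it was 1.19 (adjusted p = 0.0196). The call of Calr was lost without sWAT cold 3, TN 2 or TN 3 (adjusted p = 0.0517 to 0.0828).

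P4hb, the one disulfide isomerase called in sWAT, had 131, 107 and 116 CPM in cold, against 257, 238 and 203 CPM at TN. The response was -0.98 ± 0.26 (adjusted p = 0.0138), and -0.54 (adjusted p = 0.106) with GC correction. It was not called without sWAT cold 2 (adjusted p = 0.0639) or cold 3 (adjusted p = 0.0677). P4hb serves collagen-making cells, and summed fibroblast and progenitor markers were at 1010 to 1590 CPM in sWAT cold and 3260 to 5650 CPM in sWAT TN, with all 9 markers detected in every library. The part of those cells was not tested. Pdia3 averaged 112 ± 21.7 CPM in cold and 68.3 ± 13.7 CPM at TN, and its response of 0.72 ± 0.27 missed the threshold (adjusted p = 0.0544), passing in DESeq2 (adjusted p = 0.0364) and without sWAT cold 2 (adjusted p = 0.0435). Pdia4 had 0.54 ± 0.31 and Pdia6 -0.25 ± 0.25.

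The HSP70/HSP90 group held genes moving both ways in sWAT. Hspa5 had 182, 226 and 233 CPM in sWAT cold, against 93.2, 136 and 128 CPM in sWAT TN. Its response was 0.84 ± 0.27 (adjusted p = 0.0297). Hsp90b1 had 275, 210 and 233 CPM in cold, against 109, 181 and 98.6 CPM at TN, a response of 0.89 ± 0.31 (adjusted p = 0.0425). Dnajb9, a J protein that recruits Hspa5 to Ern1, had 52.1, 31.8 and 47.2 CPM in cold, against 17.7, 30.6 and 18.3 CPM at TN, a response of 0.99 ± 0.31 (adjusted p = 0.0265). None of these groups overlapped, though Dnajb9 came close, with 31.8 CPM in cold library 2 and 30.6 CPM in TN library 2.

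These 3 rises did not hold with GC correction, where Hspa5 was at 0.31 (adjusted p = 0.359), Hsp90b1 at -0.25 (adjusted p = 0.529) and Dnajb9 at -0.39 (adjusted p = 0.251). Each call was also lost with some single libraries left out, though the responses moved little. In those fits they were 0.71 to 0.92 for Hspa5, 0.73 to 1.0 for Hsp90b1 and 0.85 to 0.94 for Dnajb9. Hspa5 was not called without any 1 of sWAT cold 2, cold 3, TN 1, TN 2 and TN 3 (adjusted p = 0.0612 to 0.103), Hsp90b1 without any 1 of cold 1, cold 2, cold 3, TN 1 and TN 3 (adjusted p = 0.054 to 0.135) and Dnajb9 without cold 3, TN 1 or TN 3 (adjusted p = 0.0756 to 0.0851). The exons of Hsp90b1 overlap a gene on the opposite strand by 415 bases.

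Sdf2l1, a cofactor of Hspa5, and Creld2, an ER protein induced by stress, fell in sWAT. Sdf2l1 (chr16:17130138-17132383, minus strand, mm10) had 1.41, 4.14 and 3.29 CPM in sWAT cold, against 14.8, 18.5 and 15.7 CPM in sWAT TN. It was the largest fall among the chaperones, with a response of -2.49 ± 0.39 (adjusted p = 0.00141) and of -1.81 (adjusted p = 0.00378) with GC correction. Creld2 had 4.54, 9.80 and 7.21 CPM in cold, against 26.9, 27.2 and 19.0 CPM at TN. Every cold library was below every TN one, the response was -1.77 ± 0.32 (adjusted p = 0.0026), and with GC correction it was -1.25 (adjusted p = 0.00647). Both calls held in each of the 16 alternatives. Antibody-secreting cells have a large ER. The 12 plasma cell markers were all detected in every sWAT library. They summed to 229 to 783 CPM in cold and 551 to 856 CPM at TN, ranges that overlap. Ighm took much of that sum, at 122 to 464 CPM in cold and 292 to 452 CPM at TN. Singly, Mzb1 (1.47 to 2.6 CPM in cold, 19.3 to 20.9 CPM at TN), Sdc1 and Tnfrsf17 were lower in every cold library. Ighm, Igkc and Jchain overlapped between the groups. The part of antibody-secreting cells was not tested.

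The other 4 of this group, Hyou1, Dnajb11, Dnajc3 and Manf, did not pass in sWAT, with responses from -0.14 to 0.35. With GC correction Hyou1 was at 0.47, Dnajb11 at 0.05 and Manf at 0.01, none of them called. Dnajc3 had 0.35 ± 0.23 (adjusted p = 0.236) as counted and -0.58 (adjusted p = 0.0347) with GC correction, so its direction depends on that setting.

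Derl3 gave the largest fall of the 34 genes in sWAT. It had 0.445, 0.447 and 0.439 CPM in sWAT cold (counts of 24, 15 and 14), against 2.37, 3.45 and 2.92 CPM in sWAT TN (counts of 102, 142 and 154). The 3 cold libraries were almost equal and all far below TN, and the response was -2.71 ± 0.36 (adjusted p = 0.000747), or -1.92 (adjusted p = 0.0039) with GC correction. Derl1 had 153, 349 and 305 CPM in cold, against 206, 255 and 181 CPM at TN. Unlike in BAT these groups overlapped, and the response was 0.32 ± 0.35 (adjusted p = 0.469). Derl2 had -0.14 ± 0.31 (adjusted p = 0.729) as counted and -1.20 (adjusted p = 0.0275) with GC correction.

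Sel1l rose in sWAT, with 63.5, 57.9 and 55.7 CPM in cold, against 37.3, 37.4 and 43.3 CPM at TN. The groups did not overlap, but its response of 0.59 ± 0.21 only just passed (adjusted p = 0.0486) and was not called with GC correction (0.34, adjusted p = 0.156), with upper quartile scaling (adjusted p = 0.0774), with mitochondrial genes left out (adjusted p = 0.0507), with no filter (adjusted p = 0.0899) or without any 1 of the 6 libraries (adjusted p = 0.0568 to 0.142). Syvn1 had -0.59 ± 0.29 (adjusted p = 0.122), which passed without sWAT cold 1 (-0.88, adjusted p = 0.013) and was 0.19 (adjusted p = 0.65) with GC correction. Herpud1 had -0.31 ± 0.28, and 0.03 with GC correction, and Edem1, a lectin that hands misfolded glycoproteins to degradation, had -0.35 ± 0.27 as counted and -0.80 (adjusted p = 0.0144) with GC correction.

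The 2 ATF6 paralogs moved in opposite directions in sWAT. Atf6 had 51.0, 65.2 and 61.2 CPM in sWAT cold, against 12.3, 10.0 and 18.2 CPM in sWAT TN. The groups were far apart, with a response of 2.12 ± 0.29 (adjusted p = 0.000772), and 1.67 (adjusted p = 0.00197) with GC correction. Atf6b (chr17:34647146-34655074, plus strand, mm10) had 18.9, 22.1 and 22.2 CPM in cold, against 64.1, 52.6 and 46.7 CPM at TN. It was lower in 3 of 3 cold libraries, with a response of -1.37 ± 0.23 (adjusted p = 0.0018), but it has the highest GC content of the 34 genes, 60.3%, and with GC correction the response was -0.33 (adjusted p = 0.265).

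Xbp1 had 96.0, 39.1 and 56.1 CPM in sWAT cold, against 92.6, 175 and 145 CPM in sWAT TN. Cold library 1 was above TN library 1, so the groups overlapped. The response was -1.10 ± 0.39 (adjusted p = 0.0441), it was -0.75 (adjusted p = 0.169) with GC correction, and the call was lost without cold 2, cold 3, TN 2 or TN 3 (adjusted p = 0.0894 to 0.136). Ern1 had 17.2, 15.1 and 10.8 CPM in cold, against 11.8, 10.0 and 15.5 CPM at TN, a response of 0.21 ± 0.29. Eif2ak3 had 16.1, 18.0 and 14.9 CPM in cold, against 18.0, 19.8 and 23.3 CPM at TN, a response of -0.32 ± 0.23 (adjusted p = 0.268). Neither of the 2 kinases was called in sWAT.

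In the ATF4 arm, Asns was the 1 gene called in sWAT. It had 71.8, 53.4 and 58.6 CPM in sWAT cold, against 17.7, 24.6 and 26.8 CPM in sWAT TN. Every cold library was above every TN one, the response was 1.41 ± 0.26 (adjusted p = 0.00263), and with GC correction it was 1.17 (adjusted p = 0.00355). Atf4 had 81.2, 211 and 150 CPM in cold, against 104, 111 and 96.4 CPM at TN. Cold library 1, the lowest, also had the lowest sum of brown and beige adipocyte markers in its group. The cold libraries were spread on both sides of TN, with a response of 0.49 ± 0.34 (adjusted p = 0.253); it passed with GC correction (1.07, adjusted p = 0.0206) and without sWAT cold 1 (0.79, adjusted p = 0.0231).

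Ddit3 had 9.48, 12.7 and 11.4 CPM in sWAT cold, against 18.8, 9.98 and 8.67 CPM in sWAT TN. The groups overlapped, unlike in BAT, and the response was -0.17 ± 0.34 (adjusted p = 0.702), or -0.75 (adjusted p = 0.154) with GC correction. Ppp1r15a averaged 16.7 ± 3.91 CPM in cold and 26.6 ± 3.76 CPM at TN, and its response of -0.67 ± 0.25 missed the threshold (adjusted p = 0.0533). It passed with upper quartile scaling (adjusted p = 0.036), with a filter of 1 CPM in 3 libraries (adjusted p = 0.0484) and in limma-voom (adjusted p = 0.0464), and was -0.05 (adjusted p = 0.853) with GC correction. Trib3 had -0.11 ± 0.46, Chac1 -0.01 ± 0.56 and Sesn2 -0.39 ± 0.34 as counted. With GC correction these were 0.72, 0.76 and 0.54, still not called (adjusted p = 0.144 to 0.256). Chac1 varied within sWAT cold, at 3.04, 10.5 and 13.1 CPM, as much as within sWAT TN, at 6.42, 15.2 and 5.16 CPM.

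Of the 34 genes, 3 were called in the same direction in both depots, Calr, Atf6 and Derl3, the last with the limit in BAT given above. They are 75.0% of the 4 calls in BAT and 21.4% of the 14 in sWAT, and 19 genes were called in neither. The 9 genes with an ER stress element in the windows printed above did not move as 1 group. In sWAT 4 of them rose (Hspa5, Hsp90b1, Calr and Canx) and 2 fell (Creld2 and Derl3), beside 25.1% and 24.1% of all genes. Their median response in sWAT was 0.35, against -0.11 for the 25 members with no match or no window. With GC correction Hspa5 and Hsp90b1 were not called, Dnajc3 was called lower, and the median of the 9 was -0.25, against 0.05 for the other 25. In BAT 1 of the 9 rose (Calr) and 1 fell (Derl3), with a median of 0.09, against 0.15 for the other 25.

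The difference between the responses of the depots was itself tested over the 12 libraries, as the response in sWAT minus that in BAT. It passed for 5 members, 1 higher and 4 lower, beside 17.3% higher and 7.85% lower among all 16365 genes tested. The median difference of the members was -0.02, against 0.12 for all genes. Canx had a difference of 2.04 ± 0.38 (adjusted p = 0.00312), its response being 2.80 in sWAT and 0.82 in BAT. With GC correction that difference was 0.71 (adjusted p = 0.145).

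The other 4 had lower responses in sWAT than in BAT. Sdf2l1 differed by -3.24 ± 0.77 (adjusted p = 0.00984), with a fall in sWAT and 2.78, 3.37 and 1.04 CPM in BAT cold, against 2.54, 1.16 and 0.586 CPM in BAT TN. It passed in every alternative, and was -2.63 with GC correction (adjusted p = 0.00816) and -4.11 without BAT TN 1 (adjusted p = 0.00402). Eif2ak3 differed by -1.03 ± 0.31 (adjusted p = 0.0269), with responses of -0.32 in sWAT and 0.76 in BAT, and held with GC correction (-0.96, adjusted p = 0.0236). It was not called with no filter (adjusted p = 0.0572) or without sWAT cold 3 (adjusted p = 0.0741) or sWAT TN 3 (adjusted p = 0.0575).

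Derl1 differed by -1.56 ± 0.52 (adjusted p = 0.0429), with responses of 0.32 in sWAT and 1.95 in BAT, and by -1.75 (adjusted p = 0.0333) with GC correction. The call was lost without any 1 of BAT cold 1, BAT cold 2, BAT TN 3, sWAT cold 3, sWAT TN 1 and sWAT TN 2 (adjusted p = 0.0541 to 0.0953). Creld2 differed by -1.54 ± 0.51 (adjusted p = 0.0425), with responses of -1.77 in sWAT and -0.17 in BAT. It was not called with GC correction (-1.0, adjusted p = 0.0806) or without any 1 of BAT cold 1, BAT cold 2, BAT TN 2, BAT TN 3, sWAT cold 3, sWAT TN 1 and sWAT TN 2 (adjusted p = 0.0536 to 0.0877). For Hspa5, which passed in sWAT and not in BAT, the difference was 0.62 ± 0.35 and did not pass (adjusted p = 0.212), and for Asns it was 0.88 ± 0.34 (adjusted p = 0.0745). Atf6b had -1.37 ± 0.54 (adjusted p = 0.0787) and passed in DESeq2 (-1.53, adjusted p = 0.0283), with RLE scaling (-1.53, adjusted p = 0.0493) and without BAT cold 3 (-1.84, adjusted p = 0.0135) or BAT TN 1 (-1.76, adjusted p = 0.0432). With GC correction Edem1 (-0.93, adjusted p = 0.0387) and Sesn2 (1.16, adjusted p = 0.0454) passed as well.

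Set directly against each other in cold, BAT and sWAT differed in 1 of the 34 genes, beside 1.19% of all genes higher in BAT and 11.1% lower. Derl3 was lower in BAT cold, with 7 counts in all against 53 in sWAT cold, a ratio of 0.185 scaled for depth (95% exact interval 0.0709 to 0.408, counting error only). Derl3 passed the filter on low counts through the other groups and not BAT cold, so its call had to be a lower level in BAT. The fitted values are thus a description, and the counts carry the comparison. The fitted difference was -2.35 ± 0.54 (adjusted p = 0.0107). The call was lost without BAT cold 2 (-1.98, adjusted p = 0.0881) or BAT cold 3 (-1.81, adjusted p = 0.0627), and the value was -2.97 without BAT cold 1 (adjusted p = 0.0108). No member was higher in BAT cold in edgeR, DESeq2 or limma-voom, and 2 had an unadjusted p under 0.05. With GC correction 7 were higher (among them Hyou1 at 0.92, Atf6 at 1.01 and Calr at 0.91) and 2 lower. At that setting 3893 of all 16365 genes were called, 2136 of them higher, and the median of all genes was 0.261. P4hb had a difference of -0.71 ± 0.23 (adjusted p = 0.0599), passing in DESeq2 (adjusted p = 0.0231) and limma-voom (adjusted p = 0.0478), and Chac1 of -1.81 ± 0.61 (adjusted p = 0.0746), with 3.18, 3.37 and 1.04 CPM in BAT cold, against 3.04, 10.5 and 13.1 CPM in sWAT cold.

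At thermoneutrality 17 members differed between the depots, 8 higher in BAT TN and 9 lower, beside 29.9% and 28.8% of all genes. Higher in BAT TN than in sWAT TN were Canx (2.52 ± 0.28), Atf6 (1.28 ± 0.30), Asns (1.10 ± 0.24), Hsp90b1 (1.03 ± 0.33), Dnajb9 (1.00 ± 0.38), Ddit3 (0.96 ± 0.30), Hspa5 (0.87 ± 0.25) and Sel1l (0.62 ± 0.19). Lower in BAT TN were Sdf2l1 (-3.53 ± 0.58), Derl3 (-1.82 ± 0.40), Chac1 (-1.82 ± 0.61), Atf6b (-1.78 ± 0.39), Creld2 (-1.44 ± 0.36), P4hb (-1.11 ± 0.23), Xbp1 (-1.05 ± 0.34), Derl1 (-1.03 ± 0.37) and Eif2ak3 (-0.68 ± 0.22). Adjusted p ran from 1.3e-05 for Canx to 0.035 for Dnajb9. These contrasts share the sWAT TN libraries with the response in sWAT. The GC content and the response over the 34 genes had r = -0.68 here and -0.08 with GC correction, under which 14 members were called, 10 higher and 4 lower. With that correction 9622 of all 16365 genes were called, 5397 of them higher. Of the 17 member calls, 7 held with the correction and 10 were lost, those of Hspa5, Hsp90b1, Dnajb9, Ddit3, Creld2, P4hb, Derl3, Xbp1, Eif2ak3 and Chac1. Among them Derl3 was at -0.80 (adjusted p = 0.0615), Chac1 at -0.76 (adjusted p = 0.187), Creld2 at -0.60 (adjusted p = 0.0668), Hsp90b1 at -0.07 and Dnajb9 at -0.29. Leaving out 1 library ended the calls of Hsp90b1, Dnajb9, Sel1l, Derl1, Xbp1, Eif2ak3, Ddit3 and Chac1 in at least 1 case each (adjusted p = 0.051 to 0.165). Chac1 was at -1.20 without sWAT TN 2 (adjusted p = 0.121), and Sdf2l1, still called, at -4.21 without BAT TN 1.

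The wider pathway was counted with lists of other genes, none of them members. Of 41 other Atf4 and integrated stress response targets tested in BAT, 9 rose and 4 fell, beside 6.82% and 5.34% of all genes, with a median response of 0.48. These 13 calls were 4 or 5 without any 1 of BAT cold 1, BAT cold 2, BAT TN 1 and BAT TN 2, and 25 without both libraries numbered 3. At that last setting, which is also given for lists below, 6509 of all 14566 genes were called in BAT. Without any 1 of the 4 single libraries just named, also left out for lists below, it was 451 to 588 of all genes, against 1776 with none left out. The 3 genes named next were called with any 1 library left out. Got1, the cytosolic aspartate aminotransferase, averaged 141 ± 6.45 CPM in cold and 18.8 ± 6.50 CPM at TN (2.95 ± 0.34, adjusted p = 0.00281). Slc3a2, the shared heavy chain of amino acid transporters, averaged 245 ± 51.9 CPM in cold and 54.5 ± 6.99 CPM at TN (2.23 ± 0.28, adjusted p = 0.00352). Nupr1, a stress-induced chromatin protein, fell to 12.4 ± 2.77 CPM in cold, against 41.3 ± 3.36 CPM at TN (-1.68 ± 0.27, adjusted p = 0.00781). In sWAT 12 of 42 rose and 8 fell, beside 25.1% and 24.1% of all genes, with a median of 0.22, and without sWAT cold 3 it was 7 and 6. Calls among all genes were 5672 to 6989 without any 1 of sWAT cold 2, cold 3, TN 2 and TN 3, against 7734 with none left out. Such fits are also given for lists below. Vldlr, a lipoprotein receptor, rose (3.44 ± 0.28, adjusted p = 0.000198), and Pck2 and Phgdh, mitochondrial PEPCK and the first enzyme of serine synthesis, fell (-1.76 ± 0.24 and -2.10 ± 0.29). With GC correction Vldlr was at 2.64, Pck2 at -1.61 and Phgdh at -1.26, all called.

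The machinery of eIF2 itself showed a different count in each depot, and calls among all genes were also more common in sWAT. In BAT 6.82% of all genes were higher and 5.34% lower. Of 14 genes for eIF2alpha kinases, phosphatases and the exchange factor eIF2B tested in BAT, 0 were called by edgeR or limma-voom and 2 by DESeq2, while 6 had an unadjusted p under 0.05. In sWAT 8 of the 14 rose and 0 fell, beside 25.1% and 24.1% of all genes. The median response of the 14 was 1.09, and 0 had an unadjusted p under 0.05 in the lower direction. Eif2s1, the alpha subunit that the kinases phosphorylate, averaged 42.8 ± 3.26 CPM in sWAT cold and 12.0 ± 1.77 CPM in sWAT TN (1.83 ± 0.23, adjusted p = 0.000561). Eif2b3, a subunit of eIF2B, had 2.16 ± 0.31 and Eif2ak1, the heme-regulated kinase, 1.39 ± 0.22. With GC correction 7 of the 14 rose, with a median of 0.71, but Eif2s1 was not among them (0.56, adjusted p = 0.0853). The difference of responses passed for 6 of the 14, all higher in sWAT, beside 17.3% of all genes higher. Among the 6 was Eif2s1 (2.03 ± 0.36, adjusted p = 0.00244), which was at 0.47 (adjusted p = 0.382) with GC correction. In BAT 8 of the 14, 6 higher and 2 lower, were called without both libraries numbered 3.

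**Figure D5:**
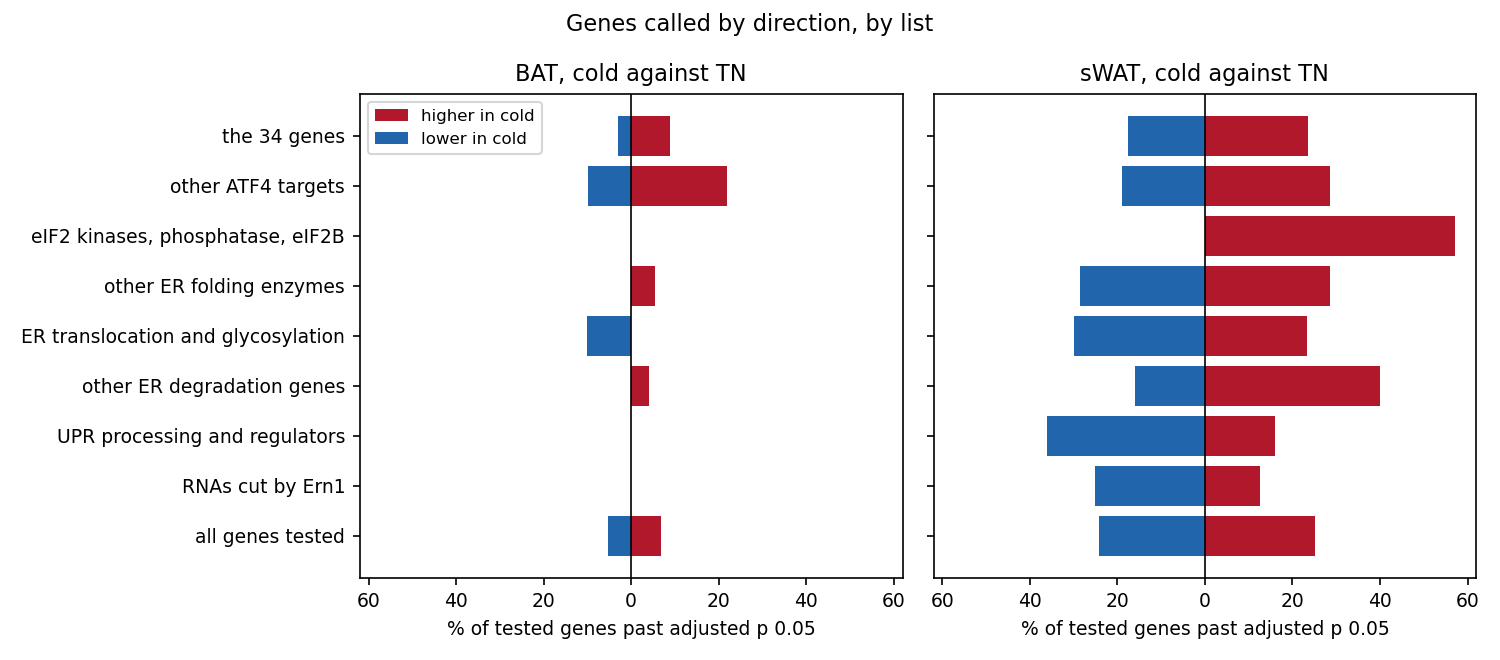
Percent of the tested genes of each list (y axis) past an adjusted p of 0.05 in cold against TN, in BAT (left) and sWAT (right); bars to the right are genes higher in cold, bars to the left genes lower in cold. The bottom row is all genes tested, with 6.82% and 5.34% in BAT and 25.1% and 24.1% in sWAT, and the eIF2 list in sWAT has 57.1% higher and 0 lower.

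Other genes of ER folding and redox chemistry gave 2 rises and 0 falls of 36 tested in BAT, beside 6.82% and 5.34% of all genes. In the lower direction DESeq2 called 2, limma-voom called 0 and 3 had an unadjusted p under 0.05. Tmx4, a membrane thioredoxin, averaged 89.6 ± 22.8 CPM in BAT cold and 22.8 ± 4.05 CPM in BAT TN (2.03 ± 0.30, adjusted p = 0.00589). Pdia2, a disulfide isomerase known from pancreas, had counts of 17, 20 and 17 in BAT cold and of 0, 0 and 2 in BAT TN. It passed the filter only through the cold libraries, where it is high, so its call had to be a rise, and with a filter of 1 CPM in 3 libraries the count was 1 rise. Without both libraries numbered 3 the list gave 7 rises and 8 falls. In sWAT 10 of 35 rose and 10 fell, beside 25.1% and 24.1% of all genes. Tmx4 was again up (2.52 ± 0.30), the prolyl isomerase Fkbp7 up (2.72 ± 0.37) and the chaperone Erp29 down (-1.89 ± 0.27). With GC correction 6 rose and 10 fell, with Tmx4 at 1.51, Fkbp7 at 1.62 and Erp29 at -2.38. Without sWAT cold 3 it was 5 and 7, and without sWAT TN 2 it was 6 and 7.

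Of 30 genes for ER translocation, signal peptidase and oligosaccharyltransferase, 3 fell in BAT and 0 rose, beside 5.34% of all genes lower, with 0 called higher in DESeq2 or limma-voom and 0 with an unadjusted p under 0.05 in that direction. The 3 were Srp14 (-1.20 ± 0.29, adjusted p = 0.0316) and Srp9 (-0.94 ± 0.25, adjusted p = 0.0461), which together form the Alu domain of the signal recognition particle, and Sec11c, a signal peptidase (-1.10 ± 0.27, adjusted p = 0.0333). None of the list was called without any 1 of BAT cold 1, BAT cold 2, BAT TN 1 and BAT TN 2, 1 was without BAT TN 3, and 11 were, 3 higher and 8 lower, without both libraries numbered 3. In sWAT 7 rose and 9 fell, beside 25.1% and 24.1% of all genes. Srp72 (2.12 ± 0.26) and Sec62 (2.77 ± 0.37) were up and Sec11c was down (-2.25 ± 0.29). With GC correction Srp72 was at 1.47, Sec62 at 1.60 and Sec11c at -2.63.

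Of 25 other degradation genes, 1 rose in BAT and 0 fell, beside 6.82% and 5.34% of all genes. There were 0 falls also in DESeq2 and limma-voom and at an unadjusted p under 0.05. The gene that rose was Nploc4, a cofactor of the VCP segregase (1.19 ± 0.28, adjusted p = 0.0307). That rise was lost without any 1 of BAT cold 1, BAT cold 2, BAT TN 1 and BAT TN 2, and without both libraries numbered 3 the list gave 6 rises. In sWAT 10 rose and 4 fell, beside 25.1% and 24.1% of all genes. Rnf139, an ER ubiquitin ligase, was at 2.60 ± 0.29, or 1.41 with GC correction. Without any 1 of sWAT cold 2, cold 3, TN 2 and TN 3 the list gave 7 rises and 2 falls. Of the genes that process or regulate the unfolded protein response, 0 of 24 were called in BAT by edgeR, 3 by DESeq2 and 1 by limma-voom, and 3 had an unadjusted p under 0.05; Nfe2l1, an ER-anchored factor that controls proteasome genes, came closest (1.03 ± 0.30, adjusted p = 0.0551). Without both libraries numbered 3 the list gave 6 rises and 6 falls. In sWAT 4 of 25 rose and 9 fell, beside 25.1% and 24.1% of all genes. Those called in the list included the CREB-related factors Crebrf (2.39 ± 0.31) and Crebzf (-2.81 ± 0.31), and Bbc3, a death effector (-2.35 ± 0.34). With GC correction Crebrf was at 0.83, Crebzf at -2.70 and Bbc3 at -0.92, all called.

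The RNAs known to be cut by Ern1 gave 0 calls of 8 in BAT in edgeR and limma-voom and 1 in DESeq2, and 1 had an unadjusted p under 0.05. In sWAT 1 rose, Rtn4 (2.54 ± 0.31, adjusted p = 0.000534), and 2 fell, Col6a1 (-1.15 ± 0.34, adjusted p = 0.0219) and Scara3 (-0.98 ± 0.31, adjusted p = 0.0271). Among all genes 25.1% were higher in sWAT and 24.1% lower, and in BAT 6.82% and 5.34%. With GC correction Rtn4 was at 2.07, and Col6a1 (-0.36, adjusted p = 0.39) and Scara3 (-0.37, adjusted p = 0.406) were not called, nor were they without sWAT cold 2 or without sWAT cold 3.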

How the data were processed

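The authors deposited a table of raw, unnormalized whole-number counts per gene for 12 libraries. Per the submitters' processing notes STAR and DESeq2 were used with mm10, with no versions stated. The sources used here do not give the counting tool, the annotation or the strand setting. Of the 34 genes, 10 have exons that overlap a gene on the opposite strand, by at most 485 bases, and reads of such pairs cannot be told apart. Per the labels, libraries came from 1000 ng of total RNA, read as pairs of 100 nt.

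Counts were analysed in R 4.3.3 with edgeR 4.0.16 (filterByExpr, TMM, glmQLFit with robust=TRUE, glmQLFTest), with Benjamini-Hochberg adjustment over all genes tested and a threshold of 0.05. Each depot had its own fit of 6 libraries. The difference of responses and the contrasts between depots used 12 libraries and 4 group means. The SE is the size of the log2 fold change divided by the square root of F. Printed CPM are counts over the total times the TMM factor, as mean ± SD of 3 libraries. The exact intervals for Derl3 are conditional binomial intervals at 95%. Alternatives changed 1 choice at a time, except the block with GC correction, which changed 2: RLE and upper quartile scaling, mitochondrial genes left out, no filter, 1 CPM in 3 libraries, DESeq2 1.42.0, limma-voom (limma 3.58.1), a lowess correction of each library for GC content (span 0.3), a replicate block, the block with GC correction, both BAT libraries numbered 3 left out, and each library left out in turn. For depots, only the 6 libraries compared were also fitted. Fits were tested on simulated counts with 100 genes changed at each of 2 sizes. A log2 change of 1 was recovered for 3 genes in BAT, 5 in sWAT and 1 in the difference of responses. A change of 2 was recovered for 78, 76 and 16. Fewer genes changed there than were called in the data, so these shares need not hold for the data. A gene not called may still have changed.

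Per-library values and tests are given for members called in either depot or in the difference of responses, and for Hspa5, Ddit3, Atf4, Xbp1, Ern1, Eif2ak3 and Atf6. From each pathway list up to 3 genes with the smallest adjusted p are named, or 1 where none passed. The members and lists were chosen with earlier results of these data known. Positions, lengths and GC content are from GENCODE M21 (mm10), matched by symbol for 34 of 34 members and 22240 of 23163 genes (96.0%). Promoter windows are RefSeq's, on GRCm38.p6, matched by symbol. No pair of libraries was a duplicate.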

Additional observations from a re-analysis of the deposited data

Results flagged for a closer look

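For 5 of the 34 genes the response to cold differed between the depots in the test of the difference itself, the interaction in edgeR over 12 libraries. Canx responded more in sWAT than in BAT, by 2.04 on the log2 scale, and was higher in cold in all 3 libraries of each depot. Sdf2l1 differed by -3.24, Derl1 by -1.56, Creld2 by -1.54 and Eif2ak3 by -1.03. The median difference over all genes tested was 0.12. All 5 rest on the sWAT TN libraries, which stand apart in composition, and with GC correction Canx (0.71) and Creld2 (-1.0) no longer passed while Sdf2l1 (-2.63), Derl1 (-1.75) and Eif2ak3 (-0.96) did.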

How the results depend on the processing

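Counts of called members moved with the processing. In BAT, 4 as reported, they were 8 in DESeq2 and 8 with GC correction. They were 15 without both libraries numbered 3, where calls among all genes went from 1776 to 6509. With single libraries left out the counts of called members were 0 to 7, and calls among all genes were 451 to 2482. In sWAT, 14 as reported, called members were 7 to 14 with single libraries left out. Calls among all genes were 5672 to 8719 there, against 7734. The difference of responses, 5 as reported, gave 8 without both BAT libraries numbered 3 and 2 to 7 with single libraries left out. BAT against sWAT in cold, 1 as reported, gave 2 with upper quartile scaling, 3 in DESeq2, 2 in limma-voom, 9 with GC correction and 0 to 2 with single libraries left out. At thermoneutrality, 17 as reported, it stayed between 13 and 18. Among members called with or without GC correction, directions turned under it for Hsp90b1 (-0.25), Dnajb9 (-0.39) and Dnajc3 (-0.58) in sWAT, and in BAT against sWAT at thermoneutrality for Hsp90b1 (-0.07), Dnajb9 (-0.29) and Trib3 (0.90). Counting members called in neither fit, signs turned for 1 of the 34 in BAT, 10 in sWAT, 14 in the difference of responses, 4 in BAT against sWAT in cold and 7 at thermoneutrality. Upper quartile scaling moved the median of all genes in BAT to -0.204, against -0.04, and the share of calls that were higher to 41.5%, against 56.1%. In the difference of responses RLE scaling gave a median of -0.032 and a share of 58.4%, against 0.122 and 68.7%, and in BAT against sWAT in cold GC correction gave 0.261 and 54.9%, against -0.034 and 9.7%. The causes were not tested. Depth limits Derl3 in BAT cold, where each library has 4 counts or fewer.

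The titles number libraries 1 to 3 by experiment in each group, and no label says what libraries of 1 experiment share. The numbers were not taken to pair the samples, since not every correlation was over 0.1. That cut is not a test of pairing, so pairing within BAT stays possible. Deviations of same-numbered libraries correlated at 0.306, 0.067 and 0.289 in BAT and at -0.231, 0.187 and -0.312 in sWAT. As a hint from the data, each BAT cold library was closest to the BAT TN library of its own number, while BAT TN 2 was closest to BAT cold 1 (0.239), and no sWAT cold library was closest to its own number. A fit with the replicate block called 7 members in BAT, with Xbp1 (adjusted p = 0.0285), Eif2ak3 (adjusted p = 0.0402) and Ddit3 (adjusted p = 0.0441) added. It called 9 in sWAT, without Hspa5, Hsp90b1, Dnajb9, Sel1l and Xbp1 (adjusted p = 0.0611 to 0.105), and in the difference of responses Creld2 was not called (adjusted p = 0.0544). With the block and GC correction the counts were 9 in BAT, 9 in sWAT, 3 for the difference of responses and 6 for BAT against sWAT in cold, with Hsp90b1 at -0.19 and Dnajb9 at -0.35 in sWAT, and at -0.05 and -0.33 in BAT against sWAT at thermoneutrality.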
